A study of Mus musculus with 16 samples.

Results

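The genes described here are those whose RNA differed in the same direction between mutant and wild-type mouse prostate whether the mice received vehicle or finasteride. All 16 libraries entered. A genotype effect is the mean log2 expression of the mutant libraries minus that of the wild-type libraries within a treatment, and the mean effect weights the effects on vehicle and on finasteride equally. Of 29535 genes in the table, 16505 were tested with limma because their mean log2 value reached that of a level of about 10, and 13029 lay below that limit; a gene counted as changed in both effects only where each effect passed an adjusted p of 0.05 by itself with the same sign. That held for 1486 genes, of which 847 were higher and 639 lower in the mutant. At the limit, Gm16325 was just inside with a mean log2 value of 3.321 and Acoxl just outside with 3.319.

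The mice were 12 months old, on the strain background given as hybrid 129/SvImJ and C57Bl/6J, and carried either both wild-type copies (+/+) or a homozygous mutation (-/-) of 1 gene. Poly-A RNA of the prostate was sequenced in 3 wild-type and 3 mutant libraries from the vehicle arm and in 5 wild-type and 5 mutant libraries from the finasteride arm. The labels name neither prostate lobes nor whether libraries came from separate animals, and p-values then reflect only the scatter among these libraries, which may be technical. Because the labels give the tissue only as prostate, fewer cells of a type and less RNA per cell cannot be told apart.

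The prostate epithelium has secretory luminal cells, a layer of basal cells and, near the urethra, proximal luminal cells, and it drains with the seminal vesicles into the urethra. Luminal cells need androgens: testosterone is reduced to the stronger dihydrotestosterone by 5-alpha-reductases, the androgen receptor binds it, and the receptor switches on genes such as probasin. Finasteride blocks 5-alpha-reductase, so setting both treatments side by side asks which genotype differences are present with and without the drug.

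A set of 5 libraries resembled mixtures of others of their group: wild-type vehicle library 3, wild-type finasteride library 4, mutant vehicle library 3 and mutant finasteride libraries 3 and 4. Over 7685 genes they lay 0.0626 to 0.0916 log2 units (residual SD) from the best blend of 2 others, so the counts of genes and list members changed in both effects with 1 sign are also given over the other 11 libraries. Values taken out of log2 summed to log2 totals of 24.07 to 24.55 per library, and the read depth is unknown. Luminal keratin Krt8 lay at 12.05 to 12.93 (log2) and smooth-muscle actin Acta2 at 13.63 to 14.85 over all 16 libraries. The summed level of 10 seminal vesicle genes ranged from 9.96 to 21.78 (log2) over the wild-type vehicle libraries and from 9.51 to 14.38 over those of wild type on finasteride. It ranged from 16.67 to 17.96 in mutant vehicle and from 16.71 to 21.54 in mutant finasteride libraries, so this marker level differed widely between libraries, and its part in the results was not tested.

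The sequences that follow are promoter windows of genes that carried the clearest differences, from 250 bases before to 50 bases after the RefSeq start, in build GRCm38.p6. Wfdc6b and Wfdc8, both higher in the mutant, start from opposite strands so close together that their windows share 173 bases, which the capitals mark (Wfdc6b at chr2:164613450-164613749, plus strand; Wfdc8 at chr2:164613577-164613876, minus strand).
Wfdc6b: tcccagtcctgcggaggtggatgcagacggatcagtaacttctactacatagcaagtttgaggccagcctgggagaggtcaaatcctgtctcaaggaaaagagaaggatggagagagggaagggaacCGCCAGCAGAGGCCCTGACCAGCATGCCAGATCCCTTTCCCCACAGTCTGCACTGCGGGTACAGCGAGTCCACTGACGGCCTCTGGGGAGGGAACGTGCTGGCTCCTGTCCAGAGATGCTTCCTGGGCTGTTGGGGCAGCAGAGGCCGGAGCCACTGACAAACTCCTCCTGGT
Wfdc8: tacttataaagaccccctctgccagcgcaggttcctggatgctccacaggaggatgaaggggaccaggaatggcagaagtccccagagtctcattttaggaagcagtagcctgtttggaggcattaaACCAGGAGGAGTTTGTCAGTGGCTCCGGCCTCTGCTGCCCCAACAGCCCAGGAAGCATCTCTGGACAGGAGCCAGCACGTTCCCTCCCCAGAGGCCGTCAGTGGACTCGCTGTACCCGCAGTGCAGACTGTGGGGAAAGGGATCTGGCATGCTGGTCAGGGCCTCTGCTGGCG
Pbsn and Mmp7, both lower in the mutant, are shown with the androgen receptor half-site AGAACA (or its reverse complement TGTTCT) in capitals (Pbsn at chrX:77853451-77853750, minus strand; Mmp7 at chr9:7691840-7692139, plus strand).
Pbsn: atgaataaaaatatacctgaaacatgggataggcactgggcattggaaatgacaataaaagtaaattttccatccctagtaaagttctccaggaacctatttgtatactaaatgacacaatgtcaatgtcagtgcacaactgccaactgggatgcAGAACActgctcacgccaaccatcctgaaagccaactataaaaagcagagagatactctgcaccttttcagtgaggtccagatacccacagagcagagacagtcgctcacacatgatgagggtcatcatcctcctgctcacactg
Mmp7: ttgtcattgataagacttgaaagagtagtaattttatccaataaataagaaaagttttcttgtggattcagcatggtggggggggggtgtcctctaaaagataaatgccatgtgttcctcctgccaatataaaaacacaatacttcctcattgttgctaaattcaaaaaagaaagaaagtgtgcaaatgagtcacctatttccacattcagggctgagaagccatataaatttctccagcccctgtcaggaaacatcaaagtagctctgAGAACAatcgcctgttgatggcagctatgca
The half-site occurred on either strand in 12.6% of the windows of all tested genes (1422 of 11315 with a window), in 12.6% of the genes higher in both effects (76 of 603) and in 11.8% of those lower in both (53 of 448). The complete palindrome of AGAACA, 3 bases and TGTTCT was in 0 of the 11315 windows. Among the leading genes with a window, Wfdc15b, which was higher in the mutant, also held 1 half-site and is not shown. A match is a description of these letters and no evidence of binding.

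In the mean effect, limma called 3422 genes higher (20.7% of those tested) and 3406 lower (20.6%). On vehicle 5299 genes passed (32.1%), and on finasteride 10498 (63.6%). Both effects passed with the same sign in 847 genes for higher (5.13%) and 639 for lower (3.87%), whereas 2312 genes (14%) passed in both with opposite signs. The genes of 1 sign were 28% of the vehicle calls and 14.2% of the finasteride calls. Without the 5 mixture-like libraries, 261 genes (1.58%) were higher and 201 (1.22%) lower in both effects, and 395 had opposite signs, so the majority turned: 39.1% of genes passing in both effects had the same sign over 16 libraries and 53.9% over 11. Wild-type and mutant libraries did not overlap on either treatment, with the mutant higher on both, in 949 genes (5.75%), and with the mutant lower on both in 771 (4.67%).

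A call in the mean effect alone often came from 1 treatment. Of the 6828 genes called there, 3731 (54.6%) passed on finasteride only, 984 (14.4%) on vehicle only, 438 (6.41%) in both with opposite signs, 189 (2.77%) in neither, and 1486 (21.8%) in both with the same sign. Across the 16505 genes the vehicle and finasteride effects, which share no library, had a Pearson r of -0.167 and a Spearman rho of -0.192, a description over genes that are not independent. The interaction, which is the finasteride effect minus the vehicle effect, passed in 9338 genes (56.6%). Among the 1486 genes of 1 sign it passed in 533 (35.9%), of which 330 had the larger effect on finasteride and 203 the larger on vehicle. For the other 953 a difference in size was not detected.

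**Figure D1:**
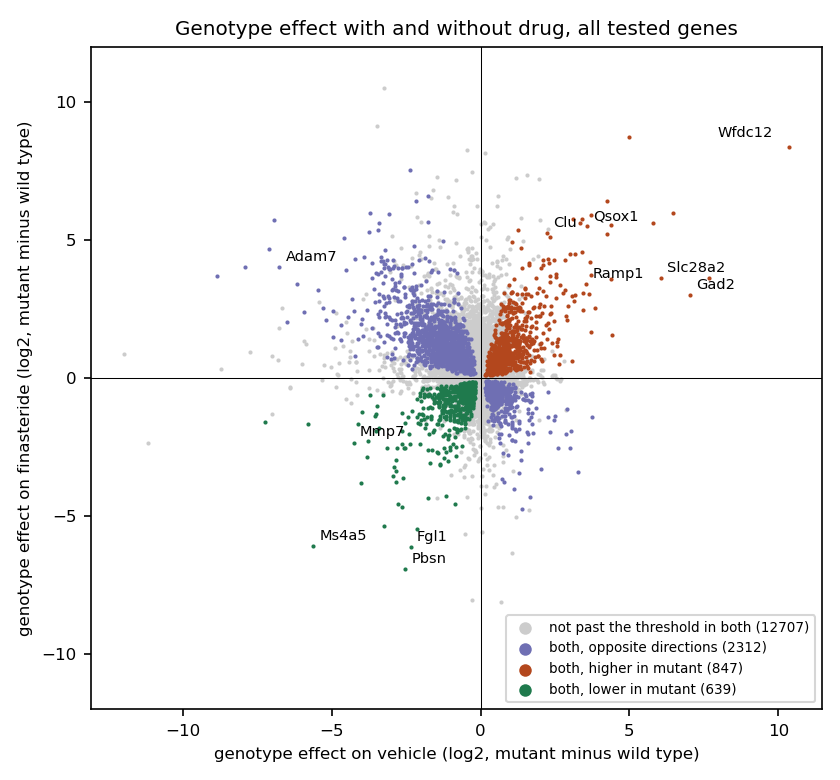
Genotype effect on vehicle (horizontal axis, log2) against genotype effect on finasteride (vertical axis, log2) for 16505 genes, 1 point a gene. The 847 genes higher in both effects lie in the upper right, the 639 lower in both in the lower left, and the 2312 of opposite sign in the remaining corners.

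In 16 of the genes higher in both, the wild-type means lay below the test limit on both treatments, and in 11 of those lower in both the mutant means did, so these genes entered the test only through the other genotype. The median effect of the genes higher in both was 0.79 (log2) on vehicle and 0.81 on finasteride, and that of the genes lower in both was -0.61 and -0.64. Effects over 1 log2 unit on both treatments were seen in 215 higher and 107 lower genes, and over 2 units in 59 and 25. The genes named below led this tail or were the strongest changed members of a functional list. Leading genes, and those named for a small interaction, had to have libraries that did not overlap between genotypes on either treatment. For them that separation is a condition of the choice. List counts in both effects stand beside 5.13% higher, 3.87% lower and 14% of opposite sign over all tested genes. In the mean effect those shares were 20.7% higher and 20.6% lower, on vehicle 14.6% and 17.5%, and on finasteride 33.2% and 30.4%. The lists were chosen with earlier results of these data known, and some hold leading genes, among them Wfdc12, Wfdc6b, Pbsn, Qsox1 and Slc28a2. A list count set beside these shares is therefore a description.

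Genes of the whey acidic protein family, small secreted proteins of which several inhibit proteases and defend epithelia, led the genes higher in both. Wfdc12 lay at 2.19, 2.46 and 3.14 in the wild-type vehicle libraries, 12.72, 13.16 and 12.95 in the mutant vehicle libraries, 4.67, 3.41, 2.54, 2.35 and 2.85 in the wild-type finasteride libraries and 12.17, 10.14, 12.13, 11.80 and 11.41 in the mutant finasteride libraries. The groups did not come near each other on either treatment. Its effect was 10.35 ± 0.55 on vehicle and 8.36 ± 0.43 on finasteride (limma adjusted p = 1.66e-08 and 5.01e-10). Over the 11 libraries the effects were 10.61 and 7.87, and both passed. Both wild-type means of Wfdc12 (2.60 and 3.16) lay below the test limit, so the gene entered only through the mutant libraries, and whether the deposited scale shrinks low values was not tested.

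Wfdc8 and Wfdc6b, the pair with overlapping promoter windows, were higher in every mutant library than in every wild-type library. Wfdc8 lay at 6.86, 5.59 and 6.56 in the wild-type vehicle libraries, 9.69, 9.81 and 9.75 in the mutant vehicle libraries, 4.82, 5.19, 5.21, 5.73 and 6.40 in the wild-type finasteride libraries and 10.50, 12.06, 10.93, 11.17 and 11.58 in the mutant finasteride libraries. Its effect was 3.41 ± 0.41 on vehicle and 5.78 ± 0.32 on finasteride, and that of Wfdc6b was 4.23 ± 0.47 on vehicle and 6.42 ± 0.36 on finasteride. In both genes the effect was larger on finasteride, by 2.37 ± 0.52 (limma adjusted p = 0.00134) for Wfdc8 and 2.18 ± 0.59 (limma adjusted p = 0.0055) for Wfdc6b. Their neighbours Wfdc6a and Eppin, a sperm-coating protease inhibitor, were looked up after the values of the pair were seen. Wfdc6a had effects of 2.30 and 1.795 and Eppin of 2.52 and 3.78 on vehicle and finasteride, all past the threshold; the wild-type vehicle mean of Wfdc6a (1.797) lay below the test limit. Wfdc15b had effects of 4.97 ± 1.52 on vehicle and 8.73 ± 1.18 on finasteride. Its vehicle effect missed the threshold over 11 libraries (limma adjusted p = 0.151) and without wild-type vehicle library 2 (0.104), mutant vehicle library 2 (0.0617) or mutant vehicle library 3 (0.0543).

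The family did not move as a whole. Also looked up afterwards, Wfdc2, Wfdc17 and Wfdc18 passed only on finasteride, with effects of 4.33, 2.88 and 3.99, and Wfdc1 passed on neither. Slpi, a leukocyte protease inhibitor, had effects of -3.97 and 2.15, opposite in sign and both past the threshold. Since Eppin and related inhibitors are also made in the glands and ducts next to the prostate, the seminal vesicle values given above apply beside these genes. That marker sum overlapped between wild-type and mutant libraries on vehicle and did not on finasteride (9.51 to 14.38 against 16.71 to 21.54), and its part in these genes was not tested.

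Qsox1, a secreted enzyme that forms disulfide bonds, was the 1 gene of 28 tested antioxidant genes that was higher in both effects. It lay at 13.81, 11.53 and 12.90 in the wild-type vehicle libraries, 16.14, 16.50 and 16.32 in the mutant vehicle libraries, 10.56, 10.85, 9.70, 9.89 and 9.92 in the wild-type finasteride libraries and 14.96, 16.55, 15.37, 15.62 and 15.93 in the mutant finasteride libraries. The wild-type vehicle libraries were spread over more than 2 log2 units, yet stayed below the mutant libraries. Within that group library 2 was the lowest for Qsox1 and for the seminal vesicle gene Svs2 (19.94, 8.02 and 18.60). Library 2 was also the lowest for Kcnj15, Gabrp, Gad2, Cd52, Wfdc15b, Wfdc8, Wfdc6b, Nipal4, B2m and Upk2, among others described here. It was not the lowest for Wfdc12, Ramp1 or Pbsn. The part of the seminal vesicle level in these genes was not tested. The effect of Qsox1 was 3.58 ± 0.48 on vehicle and 5.50 ± 0.37 on finasteride. Of the other antioxidant genes, 1 (Txn1, which encodes thioredoxin) was lower in both effects, and 5 changed with opposite signs; over 11 libraries 1 was higher and 0 lower (1 and 0 at an unadjusted p under 0.05 in each).

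Slc28a2, a sodium-coupled nucleoside transporter, lay at 5.06, 4.49 and 5.04 in the wild-type vehicle libraries, 10.27, 11.44 and 11.05 in the mutant vehicle libraries, 4.88, 4.07, 4.03, 4.19 and 4.90 in the wild-type finasteride libraries and 8.87, 6.61, 8.61, 8.23 and 7.83 in the mutant finasteride libraries. The mutant libraries were above all wild-type libraries, and those on vehicle above those on finasteride. Its effect was 6.06 ± 0.47 on vehicle and 3.62 ± 0.36 on finasteride, and the difference between the effects was -2.45 ± 0.59 (limma adjusted p = 0.00257). Kcnj15, an inward-rectifier potassium channel, had effects of 4.38 and 5.53 on vehicle and finasteride, Nipal4, a magnesium transporter, of 4.37 and 3.61, and Gabrp, a subunit of the GABA-A receptor, of 3.098 and 5.75. Cftr, the chloride channel of secretory epithelia, had effects of 1.96 and 3.27, but its vehicle effect missed the threshold over 11 libraries (limma adjusted p = 0.101), and its wild-type mean on finasteride (2.23) lay below the test limit. Of 23 listed membrane transporters, 3 were higher and 1 lower in both effects, beside 5.13% and 3.87% over all tested genes, and over 11 libraries 1 and 0 (3 and 0 at an unadjusted p under 0.05 in each).

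Ramp1, which forms the calcitonin gene-related peptide receptor with a partner, lay at 9.43, 9.49 and 9.35 in the wild-type vehicle libraries, 13.02, 12.87 and 13.00 in the mutant vehicle libraries, 9.50, 9.17, 8.93, 9.40 and 9.77 in the wild-type finasteride libraries and 12.27, 13.52, 12.43, 12.72 and 12.79 in the mutant finasteride libraries. Every mutant library exceeded every wild-type library by more than 2 units. The effect was 3.54 ± 0.25 on vehicle and 3.39 ± 0.19 on finasteride, and the difference between the effects was -0.15 ± 0.31 (limma adjusted p = 0.709). Vipr1, a receptor for vasoactive intestinal peptide, had effects of 1.32 and 1.35, and Ptger4, a prostaglandin E2 receptor, of 1.30 and 1.34. Plaur, the urokinase receptor, had effects of 1.67 and 1.65. Hopx, a homeodomain protein without DNA binding, had effects of 1.43 and 1.46, and Dlk2, a Notch-related membrane protein, of 1.19 and 1.16. These 5 genes from Vipr1 to Dlk2 were named because their interaction estimate was smallest, so their equality is a description.

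Gad2, which makes the transmitter GABA from glutamate, was higher in both but less so on finasteride. Its values were 8.39, 3.87 and 7.39 against 13.43, 13.70 and 13.58 on vehicle (wild type first) and 5.57, 5.59, 7.28, 6.91 and 5.81 against 8.45, 10.003, 8.86, 9.17 and 9.75 on finasteride. The wild-type vehicle libraries were spread over more than 4 units, and the mutant vehicle libraries stood above the mutant finasteride libraries. The effects were 7.02 ± 0.82 on vehicle and 3.02 ± 0.64 on finasteride, with a difference of -4.01 ± 1.04 (limma adjusted p = 0.00432). Angpt2, a regulator of blood vessels, had effects of 3.65 and 3.06 on vehicle and finasteride, and Fgd5, a guanine nucleotide exchange factor known from endothelium, of 3.46 and 3.07. Of 14 endothelial markers 13 were higher on finasteride and 7 in the mean effect, beside 33.2% and 20.7% of all tested genes. In both effects 1 was higher (Flt1) and 1 lower (Emcn), beside 5.13% and 3.87%, and 3 changed with opposite signs, beside 14%. Over 11 libraries limma called 0 and 0 in both effects (1 and 1 at an unadjusted p under 0.05 in each). The summed endothelial level was 11.72 to 11.81 against 11.50 to 11.59 on vehicle and 11.55 to 11.92 against 12.02 to 12.53 on finasteride, wild type first, and its part in Angpt2 and Fgd5 was not tested. Cd52, a surface glycoprotein of lymphocytes and of male genital tract epithelium, had effects of 3.18 and 4.49.

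**Figure D2:**
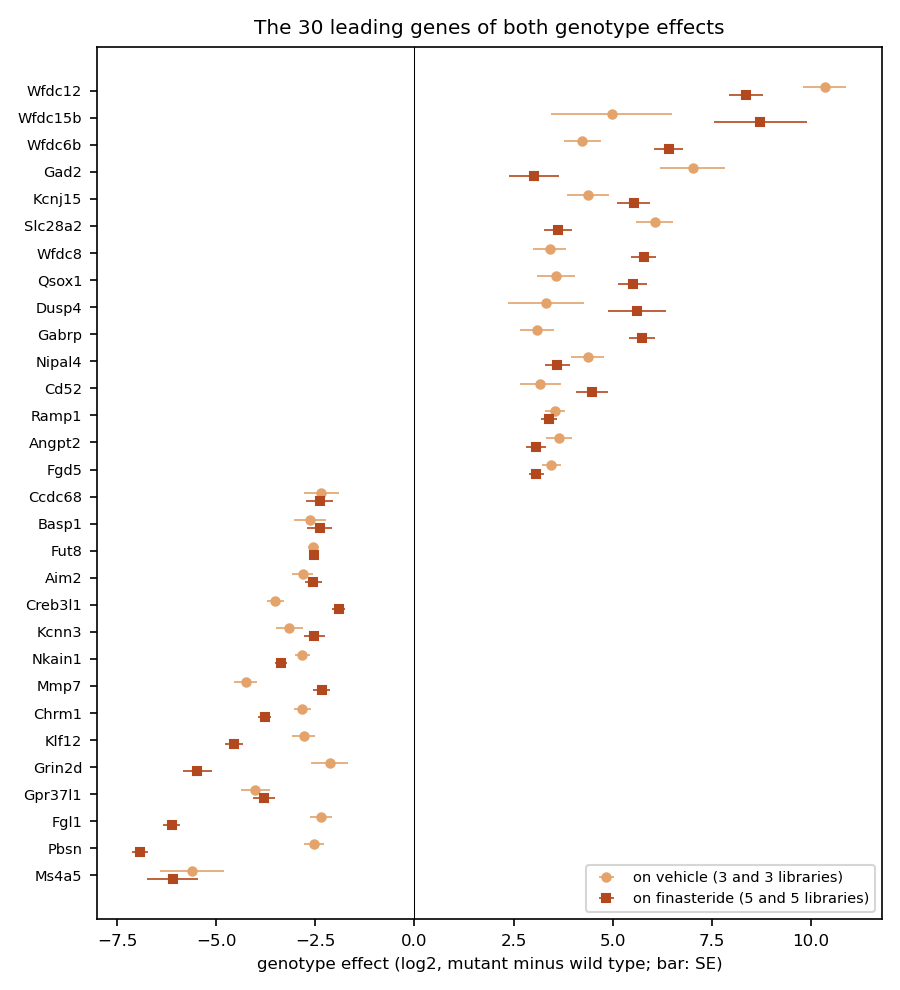
Genotype effects (log2, horizontal axis) of the 15 higher and 15 lower genes with the largest smaller-of-both effect, with standard errors as bars; circles show vehicle (3 and 3 libraries) and squares finasteride (5 and 5). The bars of Ramp1, Fut8 and Gpr37l1 overlap between treatments, whereas Pbsn and Fgl1 lie farther from 0 on finasteride and Gad2 and Mmp7 on vehicle.

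Among the genes lower in both, probasin (Pbsn), the androgen-driven secretory protein of rodent prostate, was the listed secretory gene that was lower in both effects. It lay at 18.08, 18.31 and 18.30 in the wild-type vehicle libraries, 15.66, 15.73 and 15.69 in the mutant vehicle libraries, 18.19, 17.50, 17.92, 18.12 and 18.32 in the wild-type finasteride libraries and 11.46, 10.35, 11.39, 11.13 and 11.09 in the mutant finasteride libraries. The wild-type libraries on finasteride remained near those on vehicle, the mutant vehicle libraries lay below both, and the mutant finasteride libraries lay lowest. Its effect was -2.54 ± 0.25 on vehicle and -6.92 ± 0.19 on finasteride, and the difference between the effects was -4.39 ± 0.32 (limma adjusted p = 8.75e-08): the sign was shared, and the size was not. Of 15 tested secretory genes 3 were higher in both (Wfdc12, Wfdc6b and Klk1b22) and 1 lower (Pbsn), the same numbers over 11 libraries. Klk1b22 has close paralogs between which reads could be split. On finasteride its libraries overlapped, at 2.86, 2.001, 8.76, 8.07 and 2.38 in wild type and 7.67 to 9.38 in the mutant. On vehicle Klk1b22 lay at 2.255, 1.487 and 2.352 in wild type, below the test limit, and at 9.109, 10.199 and 9.8 in the mutant. The secretory genes had median effects of -0.05 on vehicle and 2.04 on finasteride, against which Pbsn was lower on both.

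Ms4a5, a membrane protein of the CD20-like family, led the named decreases when genes were ordered by the smaller of their effects. It lay at 13.13, 12.74 and 13.04 in the wild-type vehicle libraries, 7.37, 7.39 and 7.31 in the mutant vehicle libraries, 12.92, 11.78, 12.44, 12.38 and 12.38 in the wild-type finasteride libraries and 3.19, 7.86, 5.89, 6.67 and 7.78 in the mutant finasteride libraries. No mutant library reached the wild-type range, and mutant finasteride libraries were spread over more than 4 units. The effect was -5.61 ± 0.82 on vehicle and -6.10 ± 0.63 on finasteride. Fut8, the enzyme that adds core fucose to glycoproteins, lay at 11.53, 11.57 and 11.63 in the wild-type vehicle libraries, 8.94, 9.10 and 9.04 in the mutant vehicle libraries, 11.91, 11.78, 12.08, 12.17 and 12.27 in the wild-type finasteride libraries and 9.78, 9.10, 9.66, 9.52 and 9.53 in the mutant finasteride libraries. Its effects of -2.55 ± 0.14 on vehicle and -2.52 ± 0.11 on finasteride were all but equal, with a difference of 0.02 ± 0.18 (limma adjusted p = 0.923).

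Chrm1, the M1 muscarinic acetylcholine receptor, lay at 9.79, 10.13 and 9.93 in the wild-type vehicle libraries, 6.80, 7.33 and 7.25 in the mutant vehicle libraries, 10.54, 9.75, 9.59, 10.01 and 10.23 in the wild-type finasteride libraries and 6.59, 6.05, 6.22, 6.22 and 6.16 in the mutant finasteride libraries. Wild-type values were alike on both treatments and the mutant values were lower on both. The effect was -2.83 ± 0.21 on vehicle and -3.78 ± 0.17 on finasteride. Gpr37l1, an orphan G protein-coupled receptor, had effects of -4.01 and -3.79 on vehicle and finasteride, and Kcnn3, a calcium-activated potassium channel, of -3.16 and -2.53. Nkain1, a partner of the sodium pump, had effects of -2.83 and -3.36. Grin2d, a subunit of the NMDA glutamate receptor, had effects of -2.14 and -5.48, but the vehicle effect missed the threshold over 11 libraries (limma adjusted p = 0.115).

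Mmp7, a matrix metalloproteinase secreted by glandular epithelium, lay at 15.12, 14.88 and 14.99 in the wild-type vehicle libraries, 11.01, 10.54 and 10.64 in the mutant vehicle libraries, 15.37, 14.75, 14.76, 15.04 and 15.24 in the wild-type finasteride libraries and 12.01, 13.50, 12.40, 12.58 and 12.98 in the mutant finasteride libraries. The order was the reverse of probasin, because the mutant vehicle libraries were the lowest. The effect was -4.26 ± 0.28 on vehicle and -2.34 ± 0.22 on finasteride, with a difference of 1.92 ± 0.36 (limma adjusted p = 3.59e-04). Fgl1, a secreted fibrinogen-like protein, had effects of -2.35 and -6.12 on vehicle and finasteride. Creb3l1, a membrane-bound transcription factor of secretory cells, had effects of -3.51 and -1.92, and Klf12, a zinc finger repressor, of -2.79 and -4.56. Aim2, a sensor of cytosolic DNA, had effects of -2.82 and -2.55, and Basp1, a membrane-associated protein of growing axons, of -2.64 and -2.39. A further 3 genes had nearly equal decreases and were chosen for that: Tnfsf13 (the B cell factor APRIL) at -1.19 and -1.19, Fam83f at -1.28 and -1.28 and Syt7 (a calcium sensor of exocytosis) at -1.36 and -1.38.

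**Figure D3:**
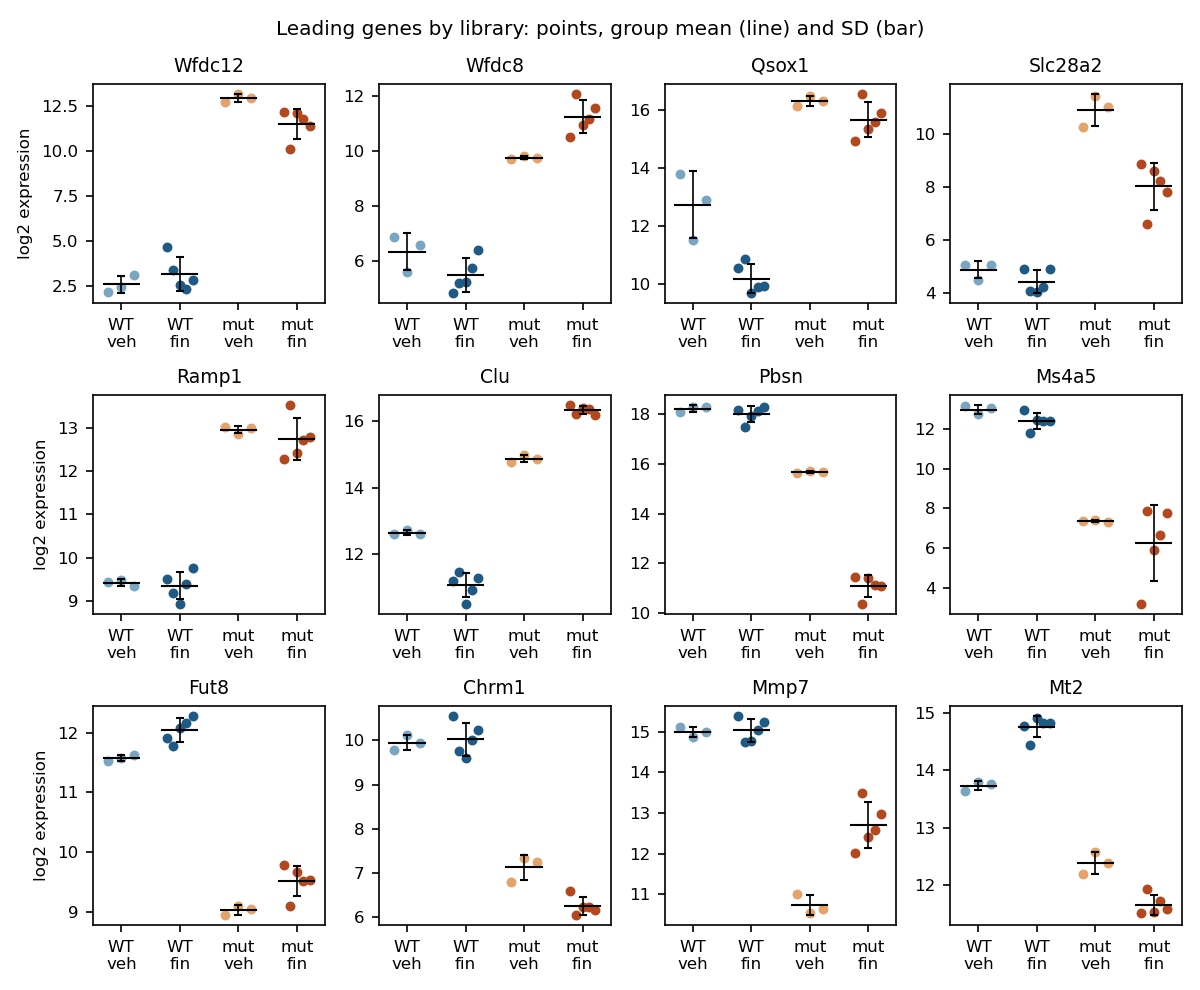
Log2 expression (vertical axes) of 12 genes in each library by group: wild type (WT) or mutant (mut) on vehicle (veh, 3 libraries) or finasteride (fin, 5 libraries), with the mean as a line and the SD as a bar. In each panel the wild-type and mutant libraries do not overlap on either treatment, which was a condition for choosing these genes other than Clu and Mt2.

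Androgen response genes did not move as a block. Of 32 listed genes, 3 were higher and 4 lower in both effects, 8 changed with opposite signs, and over 11 libraries 1 was higher and 2 lower; their median effect was -0.22 on vehicle and 0.21 on finasteride. Tmprss2, a luminal serine protease, lay at 13.41, 13.49 and 13.41 in the wild-type vehicle libraries, 12.33, 12.77 and 12.64 in the mutant vehicle libraries, 13.83, 13.82, 13.85, 13.87 and 13.88 in the wild-type finasteride libraries and 11.74, 11.80, 11.76, 11.68 and 11.69 in the mutant finasteride libraries. The mutant finasteride libraries were the lowest. Its effect was -0.86 ± 0.09 on vehicle and -2.12 ± 0.07 on finasteride. Sms, which makes spermine, the polyamine of prostatic fluid, had effects of -1.16 and -1.43 on vehicle and finasteride. Zbtb10 had effects of -0.54 and -1.45, of which the vehicle effect missed the threshold over 11 libraries (limma adjusted p = 0.089). Abhd2, a lipid hydrolase, went the other way, with effects of 1.63 ± 0.09 on vehicle and 1.47 ± 0.07 on finasteride.

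Of 17 steroid receptors and enzymes, 1 was higher and 1 lower in both effects, over 16 as over 11 libraries, and 5 changed with opposite signs. Hsd17b11, a short-chain dehydrogenase that acts on androstanediol, was higher, by 1.38 ± 0.10 on vehicle and 0.72 ± 0.07 on finasteride. Cyp7b1, which hydroxylates the androgen metabolite that binds estrogen receptor beta, was lower, with effects of -0.80 ± 0.14 on vehicle and -1.32 ± 0.11 on finasteride.

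Among 18 prostatic transcription factors 3 were higher and 1 lower in both effects, and over 11 libraries 2 and 0 (3 and 1 at an unadjusted p under 0.05 in each). Hoxa13, a homeobox gene of the posterior urogenital tract, had effects of 0.85 and 0.76 on vehicle and finasteride, and Grhl2, an epithelial identity factor, of 0.78 and 0.43. Tbx2 had effects of 2.12 and 1.08, with overlapping libraries on finasteride, where its call was lost over 11 libraries (limma adjusted p = 0.0806). Foxa1, the pioneer factor of the androgen receptor, was the factor lower in both, with effects of -0.41 ± 0.10 on vehicle and -0.39 ± 0.08 on finasteride; its libraries overlapped on finasteride, and over 11 libraries the vehicle effect missed the threshold (limma adjusted p = 0.122).

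Of 14 proximal luminal markers 12 were higher on finasteride, beside 33.2% of all tested genes. On vehicle 4 were higher and 5 lower, with a median effect of -0.11. In both effects 3 were higher (2 over 11 libraries), none was lower, and 4 changed with opposite signs. Clu, which encodes the secreted chaperone clusterin, lay at 12.60, 12.73 and 12.61 in the wild-type vehicle libraries, 14.78, 14.99 and 14.87 in the mutant vehicle libraries, 11.20, 11.46, 10.50, 10.93 and 11.27 in the wild-type finasteride libraries and 16.48, 16.22, 16.41, 16.37 and 16.20 in the mutant finasteride libraries. The 4 groups occupied separate ranges, with wild type on finasteride lowest and mutant on finasteride highest. Its effect was 2.23 ± 0.18 on vehicle and 5.26 ± 0.14 on finasteride, and the difference was 3.03 ± 0.23 (limma adjusted p = 1.23e-07). Sox2, a stem cell transcription factor, had effects of 1.27 and 2.08 on vehicle and finasteride. The summed level of the list was 14.83 to 14.96 (log2) in wild type and 15.62 to 15.83 in the mutant on vehicle, and 14.13 to 14.40 against 16.80 to 16.96 on finasteride. Without Clu the sums of the other 13 genes overlapped on vehicle, at 14.45 to 14.65 in wild type and 14.43 to 14.66 in the mutant, and were 14.01 to 14.23 against 15.08 to 15.64 on finasteride.

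Of 13 basal markers, 5 were higher and 1 was lower in both effects, beside 5.13% and 3.87% of all tested genes. Over 11 libraries the counts were 2 and 1. Trp63, the transcription factor p63 of basal cells, lay at 9.18, 8.86 and 8.92 in the wild-type vehicle libraries, 10.09, 9.91 and 10.03 in the mutant vehicle libraries, 8.56, 8.93, 8.45, 8.51 and 8.71 in the wild-type finasteride libraries and 9.74, 9.80, 9.86, 9.79 and 9.996 in the mutant finasteride libraries. Mutant libraries were above wild-type libraries on each treatment. Its effect was 1.03 ± 0.12 on vehicle and 1.21 ± 0.09 on finasteride. Jag2, a Notch ligand, had effects of 0.90 and 0.85, whereas Dst, a cytoskeletal linker of hemidesmosomes, was lower, with effects of -0.75 ± 0.14 on vehicle and -0.50 ± 0.11 on finasteride. Krt5, the basal keratin, passed on finasteride (0.86 ± 0.12) and missed on vehicle (0.33 ± 0.15, limma adjusted p = 0.11). The summed basal level on vehicle was 13.85 to 13.89 in wild type and 13.82 to 13.87 in the mutant, so the ranges overlapped there. With quantile normalization or median centring, 3 of the 13 were higher in both.

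Of 5 tested urothelial genes, 2 were higher in both effects, also over 11 libraries. Upk2, a uroplakin of the urothelial surface, lay at 5.24, 4.39 and 5.195 in the wild-type vehicle libraries, 8.31, 7.92 and 8.09 in the mutant vehicle libraries, 5.11, 4.50, 4.59, 4.61 and 4.36 in the wild-type finasteride libraries and 6.96, 8.45, 7.53, 7.55 and 7.72 in the mutant finasteride libraries. The genotypes did not overlap, and the treatments within a genotype overlapped. Its effect was 3.17 ± 0.31 on vehicle and 3.01 ± 0.24 on finasteride, with a difference of -0.16 ± 0.39 (limma adjusted p = 0.749), and Upk1b, another uroplakin, had effects of 1.94 and 0.80. The summed urothelial level was 13.15 to 13.33 against 13.84 to 14.62 on vehicle and 12.40 to 12.71 against 13.50 to 14.71 on finasteride, wild type first. How far urethral tissue was taken with the prostate was not tested.

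T and NK cell genes had the largest share of members higher in both effects among the 40 lists, 8 of 19, with none lower. All 19 were higher in the mean effect and on finasteride, and 8 were higher on vehicle. Of all tested genes, 5.13% were higher in both effects, 20.7% in the mean effect, 33.2% on finasteride and 14.6% on vehicle. Over 11 libraries limma called 0 of the 19 in both effects (5 at an unadjusted p under 0.05 in each), while 17 were higher in the mean effect. Leaving out single libraries gave 4 without mutant vehicle library 3 and 5 without mutant vehicle library 2 or wild-type vehicle library 3. Nkg7, a protein of cytotoxic granules, lay at 4.32, 4.15 and 3.82 in the wild-type vehicle libraries, 5.57, 5.38 and 5.04 in the mutant vehicle libraries, 4.91, 4.19, 4.08, 3.79 and 3.48 in the wild-type finasteride libraries and 6.22, 6.80, 6.54, 6.75 and 6.74 in the mutant finasteride libraries. The genotypes did not overlap on either treatment, and the gap was wider on finasteride. Its effect was 1.23 ± 0.29 on vehicle and 2.52 ± 0.23 on finasteride; over 11 libraries the vehicle effect missed the threshold (limma adjusted p = 0.0855). The summed level of the list was 8.74 to 8.79 in wild type and 9.31 to 9.53 in the mutant on vehicle, and 7.80 to 8.53 against 10.19 to 10.85 on finasteride. Ptprc, the pan-leukocyte marker CD45, passed on finasteride (2.03 ± 0.13) and missed on vehicle (-0.04 ± 0.17, limma adjusted p = 0.901).

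Of the antigen presentation genes 4 of 16 were higher in both effects and none lower, beside 5.13% and 3.87% of all tested genes. Over 11 libraries limma called 0 in both (5 at an unadjusted p under 0.05 in each) and 11 in the mean effect. On finasteride all 16 were higher, beside 33.2% of all tested genes. On vehicle 4 were higher and 1 lower, beside 14.6% and 17.5%. The median effect of the list was 0.01 on vehicle and 1.38 on finasteride. B2m, the light chain of MHC class I, lay at 16.70, 15.86 and 16.34 in the wild-type vehicle libraries, 17.32, 17.54 and 17.39 in the mutant vehicle libraries, 15.36, 15.52, 15.26, 15.22 and 15.24 in the wild-type finasteride libraries and 17.50, 18.11, 17.74, 17.77 and 18.12 in the mutant finasteride libraries. Mutant libraries were above wild-type libraries on both treatments. Its effect was 1.12 ± 0.23 on vehicle and 2.53 ± 0.18 on finasteride, while H2-K1 had effects of 0.80 and 1.39 and H2-D1, another class I heavy chain, of 0.68 and 1.32. Class I heavy chains have near-identical copies, so their values are uncertain. Over 11 libraries the vehicle effects of B2m, H2-K1 and H2-D1 missed the threshold (limma adjusted p = 0.081, 0.0546 and 0.0848).

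Macrophage and dendritic cell genes did not share the sign: of 19, limma called 0 higher or lower in both effects (0 also at an unadjusted p under 0.05), and 11 changed with opposite signs, lower on vehicle and higher on finasteride by median (-0.63 and 1.44). The same held for fibroblast and matrix genes, of which 13 of 24 had opposite signs, for nerve and glia, of which 10 of 16 did and 1 was lower in both (0 over 11 libraries, 1 at an unadjusted p under 0.05 in each), and for neuroendocrine genes, of which 7 of 9 did. Those shares stand beside 14% over all tested genes. Over 11 libraries the genes of opposite sign fell from 2312 to 395, and the list counts of opposite sign are not given for that fit.

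**Figure D4:**
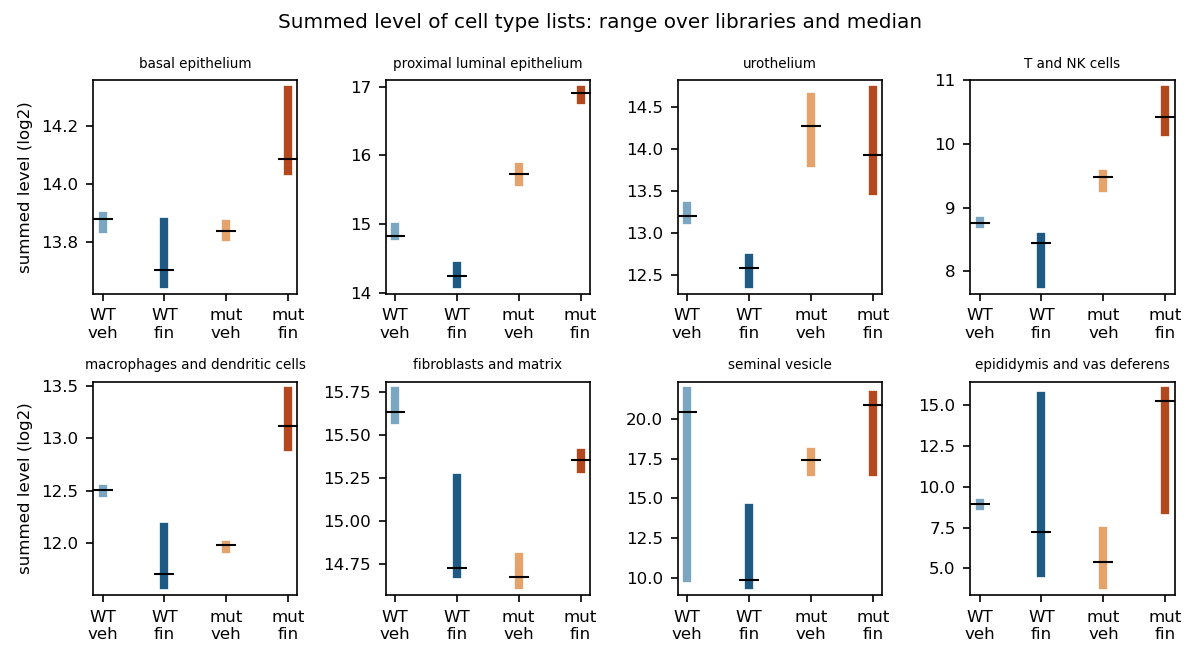
Summed level (log2, vertical axes) of 8 cell type lists in each group, as the range over libraries (bar) and the median (line); WT wild type, mut mutant, veh vehicle, fin finasteride. T and NK sums are higher in the mutant on both treatments, as are proximal luminal sums, which on vehicle overlap once Clu is left out, fibroblast and macrophage sums are lower on vehicle and higher on finasteride, and seminal vesicle sums vary most within wild type on vehicle.

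Cell cycle genes were higher in the mean effect in 22 of 31 and lower in 1, beside 20.7% and 20.6% of all tested genes. On finasteride 24 were higher and 1 lower, beside 33.2% and 30.4%, and on vehicle 7 and 0, beside 14.6% and 17.5%. In both effects 7 were higher and none lower, beside 5.13% and 3.87%. Over 11 libraries 1 was higher in both effects (Mcm5) and 14 in the mean effect. Mcm5, a subunit of the replicative helicase, lay at 6.85, 6.84 and 6.75 in the wild-type vehicle libraries, 7.78, 7.88 and 7.73 in the mutant vehicle libraries, 6.37, 6.13, 5.83, 5.79 and 5.62 in the wild-type finasteride libraries and 7.65, 8.16, 7.88, 7.85 and 7.80 in the mutant finasteride libraries. Mutant and wild-type libraries did not overlap. Its effect was 0.99 ± 0.17 on vehicle and 1.92 ± 0.13 on finasteride. Mcm7, another helicase subunit, had effects of 0.53 and 0.54, and Rrm2, a subunit of ribonucleotide reductase, of 0.70 and 1.03; over 11 libraries their vehicle effects missed the threshold (limma adjusted p = 0.0533 and 0.154).

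The unfolded protein response was a case where the mean effect came mainly from 1 treatment. Of 30 genes 22 were lower in the mean effect, 29 on finasteride and 3 on vehicle, beside 20.6%, 30.4% and 17.5% of all tested genes. In both effects 3 were lower, beside 3.87%, and 1 over 11 libraries. Another 4 were higher on vehicle, and 4 changed with opposite signs. Leaving out any 1 vehicle library other than wild-type vehicle library 2 left 1 gene lower in both. Asns, which makes asparagine and is a target of the stress factor ATF4, lay at 12.33, 12.25 and 12.25 in the wild-type vehicle libraries, 11.11, 11.32 and 11.28 in the mutant vehicle libraries, 13.12, 12.45, 12.87, 12.85 and 12.88 in the wild-type finasteride libraries and 10.30, 10.01, 10.32, 10.25 and 10.23 in the mutant finasteride libraries. The mutant libraries were below the wild-type libraries, and by more on finasteride. Its effect was -1.04 ± 0.13 on vehicle and -2.61 ± 0.10 on finasteride, and the difference between the effects was -1.58 ± 0.16 (limma adjusted p = 2.09e-06). Heat shock genes were lower in the mean effect in 11 of 15, beside 20.6% of all tested genes. Of these 15, limma called 0 in both effects with 1 sign (0 also at an unadjusted p under 0.05).

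Immediate early genes, which respond within minutes to growth factors and to handling of tissue, were higher in both effects in 6 of 26 and lower in 2, and over 11 libraries in 2 and 0 (5 and 1 at an unadjusted p under 0.05 in each). Egr1, a zinc finger factor of this class, lay at 8.09, 8.23 and 8.19 in the wild-type vehicle libraries, 9.37, 9.41 and 9.39 in the mutant vehicle libraries, 8.97, 8.86, 8.16, 8.98 and 9.41 in the wild-type finasteride libraries and 9.79, 9.87, 9.83, 9.86 and 9.88 in the mutant finasteride libraries. On each treatment the mutant libraries were above the wild-type libraries. Its effect was 1.22 ± 0.20 on vehicle and 0.97 ± 0.15 on finasteride. Ier5 had effects of 0.76 and 0.85 and Klf6 of -0.42 and -0.73 on vehicle and finasteride; that of Klf6 on vehicle missed the threshold over 11 libraries (limma adjusted p = 0.149).

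Cholesterol synthesis genes had the largest share of members lower in both effects, 5 of 21 with none higher, but 1 over 11 libraries and 2 without mutant vehicle library 1 or wild-type vehicle library 2, and 3 without mutant vehicle library 3. Insig1, which retains the sterol sensor in the endoplasmic reticulum, was lower, with effects of -0.95 ± 0.15 on vehicle and -0.50 ± 0.12 on finasteride. Of the 24 genes of the citrate cycle and zinc handling, 3 were lower in both effects (Fh1, Mt1 and Mt2), 2 over 11 libraries, and none higher. Mt2, a zinc-binding metallothionein, lay at 13.64, 13.79 and 13.75 in the wild-type vehicle libraries, 12.19, 12.57 and 12.38 in the mutant vehicle libraries, 14.77, 14.44, 14.91, 14.82 and 14.82 in the wild-type finasteride libraries and 11.51, 11.93, 11.52, 11.72 and 11.58 in the mutant finasteride libraries. In wild type the finasteride libraries were above the vehicle libraries, and in the mutant below. Its effect was -1.35 ± 0.13 on vehicle and -3.10 ± 0.10 on finasteride, and that of Mt1 was -1.10 ± 0.16 on vehicle and -3.02 ± 0.12 on finasteride. The prostate is known for storing zinc, but the other 21 genes of this list did not pass in both effects with 1 sign.

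Of 11 polyamine genes, 2 were higher and 1 lower in both effects, and 1 and 1 over 11 libraries. Azin1, which frees ornithine decarboxylase from its inhibitor, had effects of 1.43 and 0.88 on vehicle and finasteride, against the decrease of Sms given above. Of 24 Wnt genes, 2 were higher and 2 lower in both, and 0 and 1 over 11 libraries (2 and 2 at an unadjusted p under 0.05 in each). Lgr5, a stem cell receptor for R-spondin, was lower, with effects of -1.57 ± 0.19 on vehicle and -0.89 ± 0.15 on finasteride. Wif1, a secreted Wnt inhibitor, had effects of -1.94 and -0.35, and its finasteride effect missed the threshold over 11 libraries and with quantile normalization (limma adjusted p = 0.0541 and 0.0713). Birc3, an inhibitor of apoptosis, had effects of -1.19 and -0.61; among 19 cell death regulators 2 were higher and 1 lower in both, and 0 and 1 over 11 libraries (1 and 1 at an unadjusted p under 0.05 in each).

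**Figure D5:**
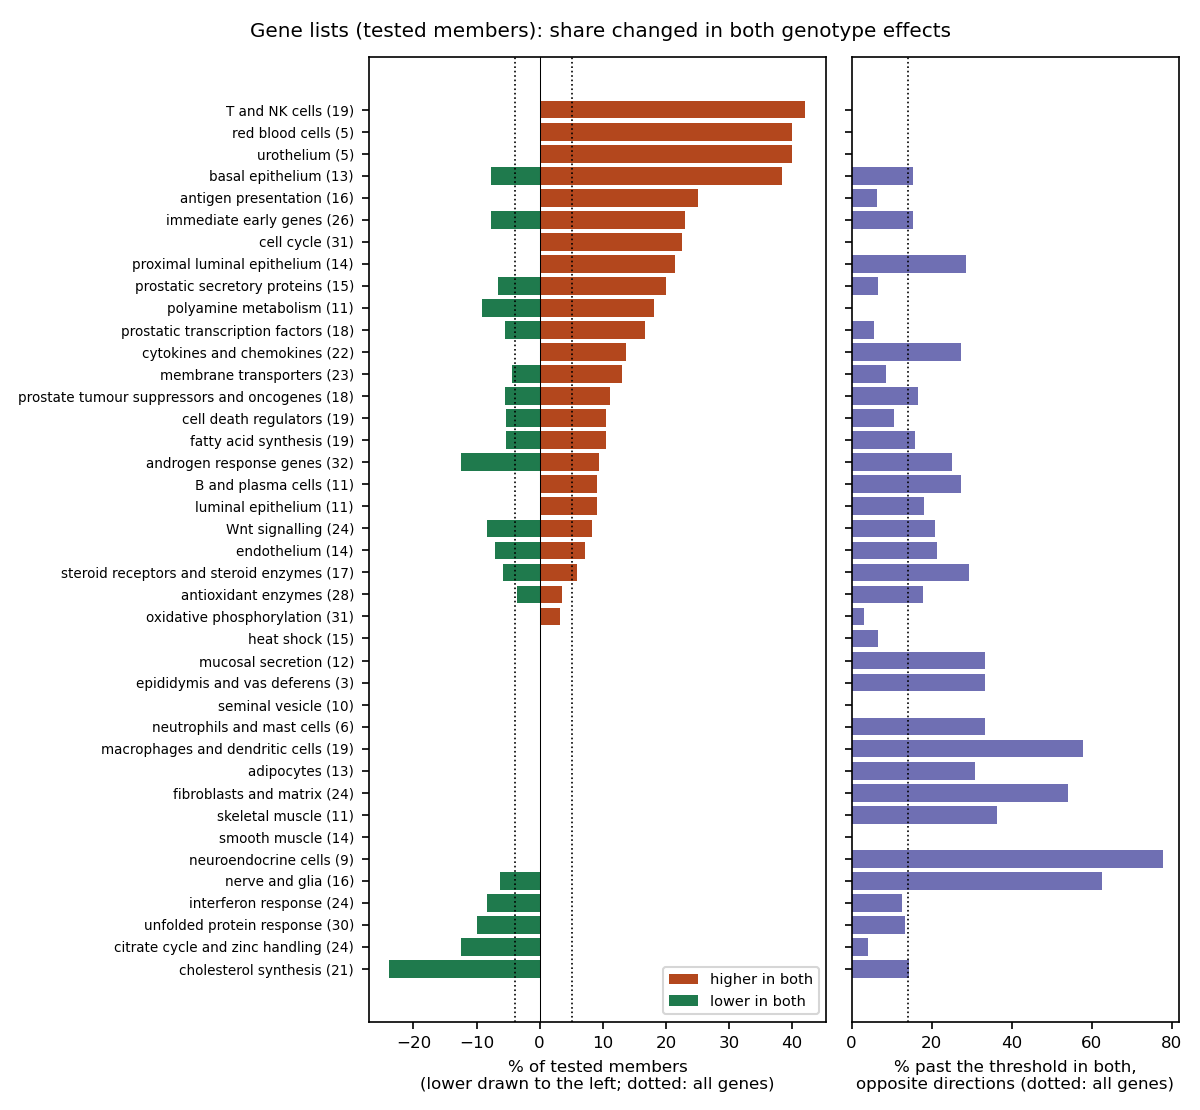
Share of tested members of each list (number in brackets) that changed in both genotype effects: left panel, higher in both (drawn to the right) and lower in both (to the left); right panel, opposite signs; horizontal axes in %. Dotted lines mark all tested genes (5.13%, 3.87% and 14%), and T and NK cells extend farthest for higher and cholesterol synthesis for lower.

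Among genes past the threshold in both effects with opposite signs, these were chosen for having the largest smaller effect. Adam7, a metalloprotease-like protein of the epididymis, lay at 8.92, 8.76 and 8.80 in the wild-type vehicle libraries, 1.402, 2.42 and 2.37 in the mutant vehicle libraries, 2.76, 6.17, 7.65, 6.88 and 1.52 in the wild-type finasteride libraries and 9.33, 8.32, 9.32, 9.07 and 9.09 in the mutant finasteride libraries. The mutant was lower on vehicle and higher on finasteride, with effects of -6.76 ± 1.16 and 4.03 ± 0.89. Scgb2b7 and Scgb2b20, secretoglobins with close paralogs, had effects of -6.93 and 5.71 and of -7.89 and 4.03, and Spink5, an epithelial protease inhibitor, of -7.11 and 4.69. The mutant vehicle means of Adam7 (2.06), Scgb2b7 (3.05) and Scgb2b20 (2.22) lay below the test limit. On finasteride the libraries of Scgb2b7 and Scgb2b20 overlapped between genotypes. Over 11 libraries Adam7 passed in both effects and the other 3 did not. Their mean effects are small beside their parts, which is why a gene was counted as shared only when each effect passed. The summed level of 3 epididymis and vas deferens genes, Adam7 among them, was 8.81 to 8.98 against 3.96 to 7.30 on vehicle, wild type first. On finasteride that sum was 4.69 to 15.56 against 8.59 to 15.85, and its part in these genes was not tested.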

How the data were processed

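Poly-A RNA of 16 mouse prostate samples was sequenced from TruSeq libraries on a HiSeq2000, per the labels. Per the submitters' processing notes, CASAVA 1.8.2, TopHat, Cufflinks, DESeq and DESeq2 were used with build mm9; which of them made the table is not given in the sources used here. The authors deposited normalized log2 values. The base was inferred from values taken out of log2, which summed to similar totals per library; depth is unknown, so no counting error can be given.

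Groups came from the labels. The 4 group means were fitted to the deposited values by limma 3.58.1 (R 4.3.3; eBayes with a mean-variance trend), with Benjamini-Hochberg adjustment over 16505 genes and a threshold of 0.05. Errors beside effects are standard errors. The code was tested on simulated data. The members and the 40 gene lists (756 symbols, 751 matched, 693 tested) were chosen with earlier results of these data known. Named genes were, among genes past the threshold in both effects with non-overlapping libraries and a mean log2 value of at least that of 50, the 15 higher and 15 lower with the largest smaller effect and the 5 of each with the smallest interaction; up to 4 members of each list changed in both effects; and the 5 largest changes of opposite sign. The rule gave 122 genes, of which 76 were described and entered the flags and setting checks below, a choice made after values were seen. Klk1b22, Txn1, Flt1, Emcn and Fh1, also given by the rule, are named as list members and did not enter those checks. A library was called mixture-like where a mixture of 2 others of its group, both weights over 0.2, left a residual SD under 0.1 over genes with log2 values of at least 8. Alternatives were 11 libraries, quantile normalization, median centring, no filter, a mean of at least 50, a pseudocount of 8, no trend, an additive model and leaving out each library. Promoter windows came from RefSeq, build GRCm38.p6, matched by symbol for 11315 tested genes, with windows on chromosome 18 left out. The files' coordinates were not used. The mutated gene and some other genes that the rule gives are not reported here.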

Additional observations from a re-analysis of the deposited data

Results flagged for a closer look

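Of the 76 genes checked, 39 had genotype effects that differed in size between the treatments (limma interaction, adjusted p under 0.05). The interaction passed in 56.6% of all tested genes, and some of the named genes were chosen for a small interaction or for opposite signs. Each value is the finasteride effect minus the vehicle effect in log2 units. Genes higher in both effects with the larger increase on finasteride were Wfdc6b at 2.18, Wfdc8 at 2.37, Qsox1 at 1.93, Gabrp at 2.65, Cftr at 1.31, Clu at 3.03, Sox2 at 0.82, Nkg7 at 1.29, B2m at 1.41, H2-K1 at 0.60, H2-D1 at 0.64 and Mcm5 at 0.94. Those with the larger increase on vehicle were Wfdc12 at -1.98, Slc28a2 at -2.45, Gad2 at -4.01, Grhl2 at -0.35, Hsd17b11 at -0.66, Upk1b at -1.14 and Azin1 at -0.55. Genes lower in both effects with the larger decrease on finasteride were Pbsn at -4.39, Chrm1 at -0.95, Grin2d at -3.34, Klf12 at -1.77, Fgl1 at -3.77, Tmprss2 at -1.27, Zbtb10 at -0.91, Cyp7b1 at -0.52, Asns at -1.58, Mt1 at -1.92 and Mt2 at -1.76. Those with the larger decrease on vehicle were Creb3l1 at 1.59, Mmp7 at 1.92, Lgr5 at 0.68, Wif1 at 1.59 and Birc3 at 0.58. The genes of opposite sign had differences of Scgb2b7 at 12.65, Spink5 at 11.80, Adam7 at 10.79 and Scgb2b20 at 11.92.

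In the groups of 5 libraries, 1 library stood apart from its group by Dixon's criterion in 9 of 152 tested combinations of gene and group, where chance gives about 1 in 20. In wild type on finasteride, library 2 was the highest for Cd52 (11.66) and Birc3 (11.49) and the lowest for Creb3l1 (7.88) and Mt1 (14.96), and library 1 the lowest for Klf12 (8.30). In mutant on finasteride, library 2 was the lowest for Sms (7.53), Asns (10.01), Adam7 (8.32) and Scgb2b20 (7.05). The values in brackets are log2 expression, and leaving out any of these 3 libraries kept the calls of these genes in both effects.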

How the results depend on the processing

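Only the fit over 11 libraries moved a total by over 1.5 times: 1794 genes were higher and 1599 lower in the mean effect, 1529 passed on vehicle, 6774 on finasteride and 4842 in the interaction, 261 were higher and 201 lower in both effects, and 395 changed with opposite signs. Fewer libraries enter that fit, and the p-values over 16 are too small if the 5 mixture-like libraries are not separate samples. Of the genes changed in both effects with 1 sign, 527 higher and 392 lower kept that call without each of the 16 libraries in turn, and 637 and 498 kept it with quantile normalization, where 4 and 0 had opposite signs. Quantile normalization moved the median gene by 0.06 log2 units on vehicle and -0.11 on finasteride, and median centring by 0.08 and -0.12; with the former the vehicle calls went from 2408 higher and 2891 lower to 2859 and 2430, and the finasteride calls from 5476 and 5022 to 4300 and 6111. In the mean effect, Adam7 missed the threshold over 16 libraries and passed without wild-type finasteride library 5. The others of the 76 genes checked kept their side of the threshold under every setting run that tested them. Of the genes looked up afterwards, Slpi, Wfdc17 and Wfdc18 passed over 16 libraries and missed over 11 (limma adjusted p = 0.348, 0.189 and 0.0796). Of the lists, counts of 1 or 2 members in both effects moved by 1 without single libraries in immediate early, Wnt, cell death, polyamine, antioxidant, endothelial, steroid, prostatic transcription factor and transporter genes, among them each vehicle library, wild-type finasteride libraries 2 and 3 and mutant finasteride library 2. No paired analysis was possible because the labels give running numbers that pair no libraries. Unknown depth limits what can be said of low genes.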

Other observations

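Genes changed in both effects with 1 sign were in places neighbours on a chromosome. Among 15279 tested genes placed by a RefSeq annotation of another build, used for order only, there were 17 runs of 3 or more adjacent tested genes of 1 sign, the longest of 5. On chromosome 2, Wfdc6a, Eppin, Wfdc8 and Wfdc6b were all higher, of which Wfdc6a had a wild-type vehicle mean below the test limit. On chromosome 11, Sectm1b, Sectm1a, Tex19.2, Ogfod3 and Hexdc were all higher. On chromosome 9, Mmp8, Mmp20 and Mmp7, which encode matrix metalloproteinases, were all lower, as were Tmem123, Birc2 and Birc3. On the X chromosome, Armcx6, Armcx3, Armcx2 and Zmat1 were all lower. Pbk, Esco2 and Ccdc25 on chromosome 14 were all higher, and the remaining runs are not named here. By chromosome, the share of tested genes changed in both effects with 1 sign ran from 6.81% on chromosome 12 to 12.2% on chromosome 14 (63 of 516). These runs were looked for after the values were seen, and the part of the hybrid strain background in them was not tested.

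Seminal vesicle genes had median effects of -2.18 on vehicle and 6.90 on finasteride, and limma called 0 of 10 in both effects, also at an unadjusted p under 0.05. Among smaller lists, limma called 0 of 14 smooth muscle genes in both effects, also at an unadjusted p under 0.05, and of 31 oxidative phosphorylation genes 1 was higher in both (0 over 11 libraries, 0 at an unadjusted p under 0.05 in each) and 1 changed with opposite signs.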
